A study of Mus musculus with 15 samples.

Results

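The 10 genes Fos, Fosb, Jun, Junb, Atf3, Egr1, Ier2, Dusp1, Myc and Max were taken by the gene symbol of the array platform, out of 12393 genes. They were measured by 11 probe sets among the 22626 that were tested. Jun had 2 probe sets and the other 9 genes had 1 each, none of them shared with another gene, and no filter on low values was applied. No measured value entered the choice by symbol.

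Immediate early genes are switched on within minutes of a growth factor or stress signal without new protein synthesis, and most of their messages are short-lived. FOS, FOSB, JUN, JUNB and ATF3 are basic leucine zipper proteins that bind AP-1 or cyclic AMP response sites as dimers. EGR1 is a zinc finger factor, IER2 a nuclear protein, and DUSP1 a phosphatase that switches off MAP kinases. MYC acts as a dimer with MAX, binds E-boxes and drives ribosome production and growth. Neurospheres are commonly kept in mitogens, and immediate early genes and Myc are targets of mitogen signalling.

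The cells were primary neural stem cells of female C57/B16 mice, 6 weeks old, grown as neurospheres, which are free-floating clusters. Control cultures were compared with cultures given CD95L-T4, a trimerised ligand of the death receptor CD95 (Fas), for 48 h. Each culture type was read as unfractionated (total) RNA and as RNA bound to polysomes, mRNA loaded with several ribosomes. There were 4 arrays of total and 4 of polysomal RNA from control cultures, and 4 and 3, in this order, from CD95L-T4 cultures. How control cultures were handled over the 48 h is not given. The labels call the replicates biological but do not say how many mice or separate preparations they stand for, so p-values measure the spread between these samples. Values are log2 intensities scaled between arrays, so that a difference between fractions is relative to the other messages on the arrays. Extraction used a mirVana kit for total RNA but phenol and chloroform for the polysomal fraction, and the labels give the molecule as total RNA and polyA RNA respectively, so fraction, extraction and molecule cannot be told apart. In such bulk samples fewer cells of a type and less RNA per cell cannot be told apart either. Gene positions are given in GRCm38.p6 from RefSeq.

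Arrays of a group correlated at 0.994 to 0.998. Of 7 measured neural stem cell markers, 6 lay above the array median in each group, whereas 0 of 5 microglial, 0 of 4 endothelial and 0 of 3 oligodendrocyte markers did, with 2 of 5 neuronal and 1 of 4 astrocyte markers. CD95L-T4 polysomal replicate 2 had the highest added poly-A controls, at 9.71 against 8.05 and 8.19 in replicates 1 and 3 and 8.34 to 8.90 in control polysomal arrays. For beta-actin, the 3' probe set exceeded the 5' probe set by 1.03 in CD95L-T4 polysomal replicate 3, by 0.59 to 0.81 on the other polysomal arrays and by 0.28 to 0.57 on total RNA arrays. The part of either in the results was not tested; values that moved without a single array are given with the result.

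In control cultures most immediate early messages were higher in polysomal than in total RNA. Ier2 rose 1.98-fold, Atf3 1.72-fold, Fos 1.62-fold, Dusp1 1.59-fold and Junb 1.35-fold, and Max, the partner of MYC, rose 2.10-fold. Jun fell, whereas Egr1, Fosb and Myc did not pass the test. By limma, with Benjamini-Hochberg adjustment over all probe sets, 6 of the 11 probe sets were called higher and 2 lower. Over all probe sets 29.8% were called higher and 26.3% lower (56.1% in either direction). The median difference was 0.44 (log2) over the 11 and 0.06 over all probe sets. The groups did not overlap for 7 of the 11, against 54.6% of all probe sets.

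**Figure D1:**
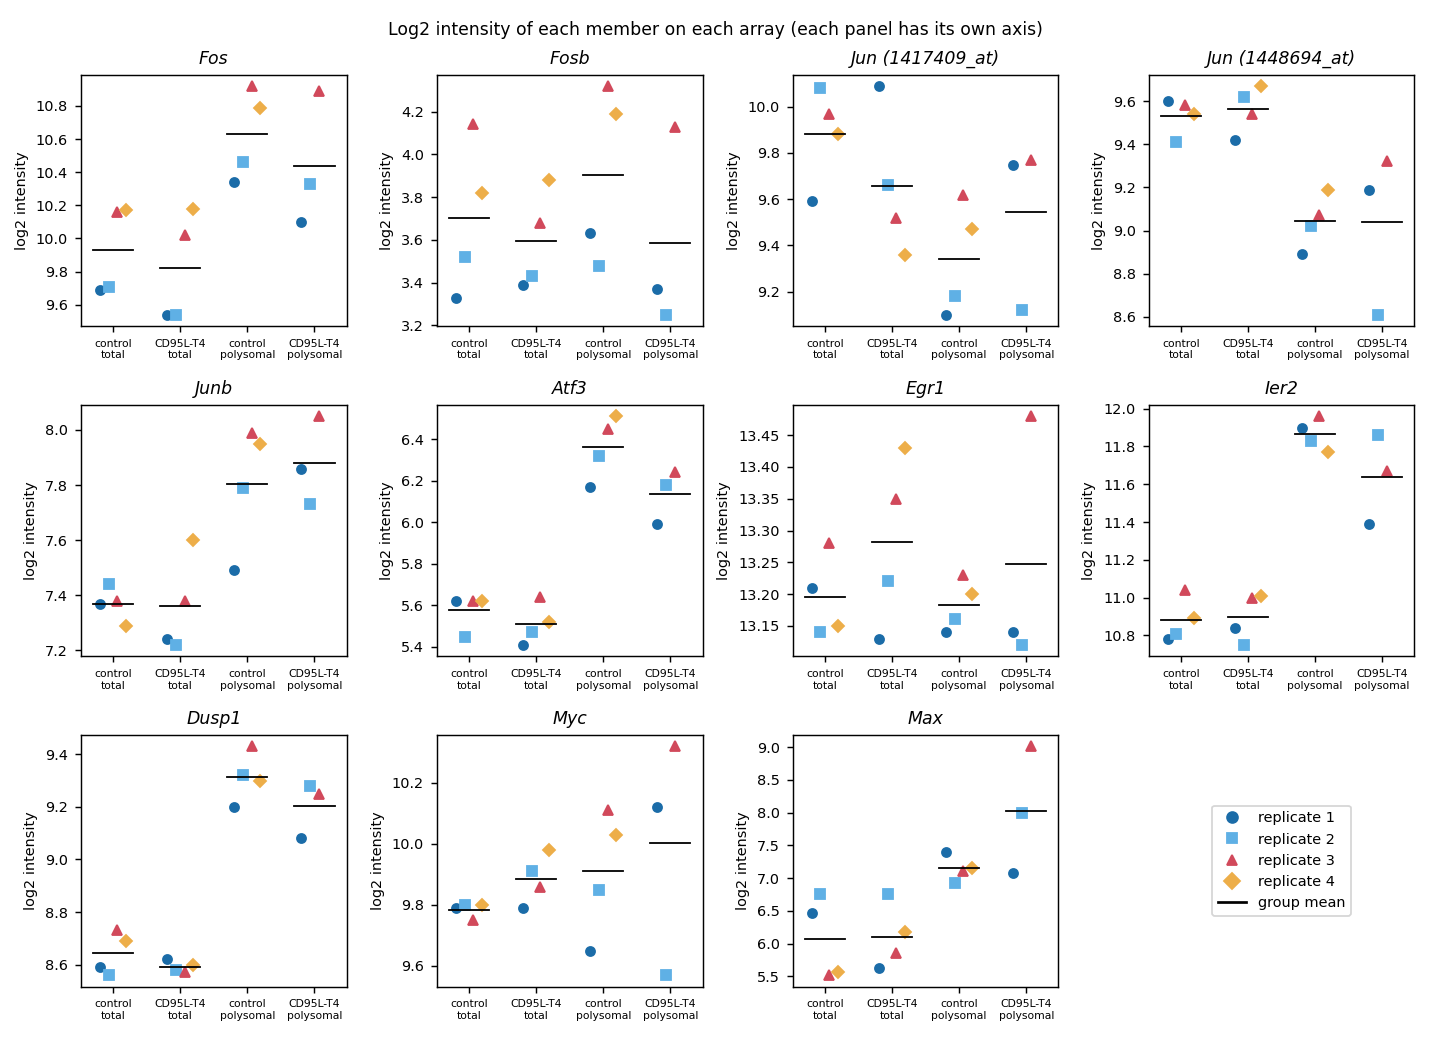
Log2 intensity of each of the 11 probe sets (1 panel each, with its own vertical axis) on the 15 arrays, by group (horizontal axis); symbols mark the replicate number and black lines the group means. Ier2, Atf3 and Dusp1 form separate levels in total and polysomal RNA, and Fos is lower in replicates 1 and 2 than in the other replicates of its group.

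Fos (chr12:85473890-85477274) encodes the partner of JUN in classical AP-1. In total RNA, Fos stood at 9.69, 9.71, 10.16 and 10.17 in control replicates 1 to 4 and at 9.54, 9.54, 10.02 and 10.18 in CD95L-T4 replicates 1 to 4. In polysomal RNA it stood at 10.34, 10.46, 10.92 and 10.79 in control and at 10.10, 10.33 and 10.89 in CD95L-T4 cultures. Every control polysomal value lay above every control total value, but the lowest CD95L-T4 polysomal value, 10.10, lay below the CD95L-T4 total value of 10.18. The difference between fractions was 0.70 ± 0.19 (SE, n = 4 and 4, limma adjusted p = 0.00445) in control and 0.62 ± 0.20 (n = 3 and 4, adjusted p = 0.0166) in CD95L-T4 cultures. In CD95L-T4 cultures the call was lost without total replicate 1 (0.53, adjusted p = 0.051), without total replicate 2 (0.53, adjusted p = 0.0524) and without polysomal replicate 3 (0.40, adjusted p = 0.131). Within each of the 4 groups Fos was lower in both replicates 1 and 2 than in every higher-numbered replicate.

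Fosb (chr7:19302696-19310118), whose product also pairs with JUN proteins, was dim and belonged to the dimmest 25% of probe sets. It stood at 3.33, 3.52, 4.14 and 3.82 in control total RNA and at 3.39, 3.43, 3.68 and 3.88 in CD95L-T4 total RNA. On polysomes it stood at 3.63, 3.48, 4.32 and 4.19 in control and at 3.37, 3.25 and 4.13 in CD95L-T4 cultures. All groups overlapped, and replicates 1 and 2 were again below the others in each of the 4 groups. The difference between fractions was 0.20 ± 0.22 in control (limma adjusted p = 0.456) and -0.01 ± 0.24 in CD95L-T4 cultures (adjusted p = 0.973).

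The stretches of 150 bases before the annotated start of Fos and Dusp1 are shown, for the following reasons. Fos values were lower in replicates 1 and 2 than in the other replicates of each group. This pattern did not pass an F test of replicate number (limma adjusted p = 0.0612). Dusp1 alone of the matched members held a full cyclic AMP response element. Sequences are from RefSeq (GRCm38.p6), read 5′ to 3′ in the direction of the gene, and capitals mark, on either strand, the core TGACG, the full cyclic AMP response element TGACGTCA, the E-box CACGTG and the TATA box TATAAA.
Fos, chr12:85473740-85473889, plus strand: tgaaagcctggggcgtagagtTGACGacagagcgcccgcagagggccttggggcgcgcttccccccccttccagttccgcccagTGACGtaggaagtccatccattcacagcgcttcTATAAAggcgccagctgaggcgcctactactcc
Dusp1, chr17:26508473-26508622, minus strand: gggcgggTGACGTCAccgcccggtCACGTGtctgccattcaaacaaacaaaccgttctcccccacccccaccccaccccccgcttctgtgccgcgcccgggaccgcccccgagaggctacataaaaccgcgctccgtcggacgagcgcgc
Promoter sequences were matched for 7 of the 10 genes, with none for Egr1, Ier2 and Myc. Of the 7, Fosb and Max have windows counted from a transcript start inside the annotated gene span. Searching 250 bases before the start on both strands, TGACG was found in 5 of these 7 (Fos, Fosb, Junb, Atf3 and Dusp1) and in 17.8% of all 32851 promoters. The full element TGACGTCA, which contains TGACG on both strands, was found in Dusp1 and in 1.55% of all promoters. The E-box CACGTG was found in Dusp1 and in 6.02% of all promoters, and TATAAA in Fos and in 12.4%. The AP-1 site TGANTCA, held by 6.75% of all promoters, and the CArG box bound by SRF, held by 1.47%, were found in 0 of the 7 windows. A match is a description of letters in this window and says nothing of binding. Bases further upstream were not searched, so a count of 0 does not show that a gene lacks the site.

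Jun (chr4:95049036-95052222), a main partner of FOS, was the only member called lower on polysomes. Probe set 1417409_at stood at 9.59, 10.08, 9.97 and 9.88 in control total RNA and at 9.10, 9.18, 9.62 and 9.47 in control polysomal RNA. Probe set 1448694_at stood at 9.60, 9.41, 9.58 and 9.54 in control total RNA and at 8.89, 9.02, 9.07 and 9.19 in control polysomal RNA. The fractions overlapped for the former, where polysomal replicate 3 lay above total replicate 1, and stayed apart for the latter. The probe sets fell by 0.54 ± 0.17 (log2, SE, n = 4 and 4, limma adjusted p = 0.0125) and by 0.49 ± 0.12 (adjusted p = 0.00212). In CD95L-T4 cultures only 1 of them passed. Probe set 1417409_at stood at 10.09, 9.66, 9.52 and 9.36 in total RNA and at 9.75, 9.12 and 9.77 on polysomes, a difference of -0.11 ± 0.18 (adjusted p = 0.653). Probe set 1448694_at stood at 9.42, 9.62, 9.54 and 9.67 in total RNA and at 9.19, 8.61 and 9.32 on polysomes, and fell by 0.52 ± 0.13 (adjusted p = 0.00256). Without CD95L-T4 polysomal replicate 2, in which both probe sets were lowest of their group, the differences were 0.10 and -0.31 (adjusted p = 0.685 and 0.0143). Where the probe sets lie in the transcript is not given in the sources used here.

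Junb (chr8:84976909-84978748), which encodes a weaker activator that can oppose JUN, was higher on polysomes in both cultures. It stood at 7.37, 7.44, 7.38 and 7.29 in control total RNA and at 7.49, 7.79, 7.99 and 7.95 on control polysomes, a difference of 0.44 ± 0.11 (SE, n = 4 and 4, limma adjusted p = 0.00269). In CD95L-T4 cultures it stood at 7.24, 7.22, 7.38 and 7.60 in total RNA and at 7.86, 7.73 and 8.05 on polysomes, a difference of 0.52 ± 0.12 (adjusted p = 0.0013). The fractions did not overlap in either culture.

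Atf3 (chr1:191170296-191183333), a stress-induced member of the ATF family, showed narrow groups. It stood at 5.62, 5.45, 5.62 and 5.62 in control total RNA and at 6.17, 6.32, 6.45 and 6.51 on control polysomes. The CD95L-T4 values were 5.41, 5.47, 5.64 and 5.52 in total RNA and at 5.99, 6.18 and 6.24 on polysomes. The fractions were apart in both cultures, with differences of 0.79 ± 0.09 (limma adjusted p = 4.63e-07) and 0.63 ± 0.09 (adjusted p = 1.95e-05). The probe set was among the dimmer 50% of all probe sets.

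Ier2 (chr8:84661331-84662852) and Dusp1 (chr17:26505591-26508472) had the smallest adjusted p-values of the members between fractions. Ier2 stood at 10.78, 10.81, 11.04 and 10.89 in control total RNA and at 11.90, 11.83, 11.96 and 11.77 on control polysomes, a difference of 0.99 ± 0.10 (SE, n = 4 and 4, limma adjusted p = 1.23e-07). In CD95L-T4 cultures it stood at 10.84, 10.75, 11 and 11.01 in total RNA and at 11.39, 11.86 and 11.67 on polysomes, a difference of 0.74 ± 0.11 (adjusted p = 1.17e-05). Its fractions lay apart in both cultures, and CD95L-T4 polysomal replicate 1 was the lowest polysomal array.

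Dusp1 ends the MAP kinase signal that induces immediate early genes. It stood at 8.59, 8.56, 8.73 and 8.69 in control total RNA and at 9.20, 9.32, 9.43 and 9.30 on control polysomes. The CD95L-T4 values were 8.62, 8.58, 8.57 and 8.60 in total RNA and at 9.08, 9.28 and 9.25 on polysomes. The fractions lay apart in both cultures, with differences of 0.67 ± 0.07 (limma adjusted p = 2.92e-07) and 0.61 ± 0.08 (adjusted p = 2.8e-06).

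Egr1 (chr18:34861207-34864956) was the member with nearly equal values in both fractions. It stood at 13.21, 13.14, 13.28 and 13.15 in control total RNA and at 13.14, 13.16, 13.23 and 13.20 on control polysomes, a difference of -0.01 ± 0.09 with a 95% interval of -0.20 to 0.17 (limma adjusted p = 0.915). In CD95L-T4 cultures it stood at 13.13, 13.22, 13.35 and 13.43 in total RNA and at 13.14, 13.12 and 13.48 on polysomes, a difference of -0.04 ± 0.09 (adjusted p = 0.781). All 4 groups overlapped. With equal array medians the differences were 0.08 and 0.05, so no direction is given. The brightest probe set per array reached 14.37 to 14.47, and whether the Egr1 signal was compressed at this brightness was not tested.

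Myc (chr15:61985341-61990361) did not pass the test between fractions. It stood at 9.79, 9.80, 9.75 and 9.80 in control total RNA and at 9.65, 9.85, 10.11 and 10.03 on control polysomes, where its SD was 0.20 against 0.02 in total RNA. The CD95L-T4 values were 9.79, 9.91, 9.86 and 9.98 in total RNA and at 10.12, 9.57 and 10.32 on polysomes. The differences were 0.13 ± 0.13 (limma adjusted p = 0.43) and 0.12 ± 0.14 (adjusted p = 0.51). Without CD95L-T4 polysomal replicate 2, which held the lowest Myc value of all arrays, the difference in CD95L-T4 cultures was 0.34 (adjusted p = 0.0183) and passed. Without replicate 3 it was -0.04.

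Max (chr12:76937269-76962323) had the highest SD of the members in 3 of the 4 groups, but not on control polysomes. It stood at 6.46, 6.76, 5.52 and 5.57 in control total RNA and at 7.40, 6.93, 7.11 and 7.16 on control polysomes, a difference of 1.07 ± 0.34 (SE, n = 4 and 4, limma adjusted p = 0.0133). In CD95L-T4 cultures it stood at 5.63, 6.76, 5.86 and 6.18 in total RNA and at 7.08, 8.0 and 9.01 on polysomes, a difference of 1.92 ± 0.37 (adjusted p = 0.000282). The fractions lay apart in both cultures, and control total replicates 1 and 2 lay above replicates 3 and 4. The control call was lost without control total replicate 3 (0.89, adjusted p = 0.0506). In CD95L-T4 cultures the difference was 1.43 without polysomal replicate 3, the array with the largest beta-actin gap, and 2.40 without polysomal replicate 1. The Max probe set was among the dimmer 50% of all probe sets. The platform annotation gives no accession for it.

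**Figure D2:**
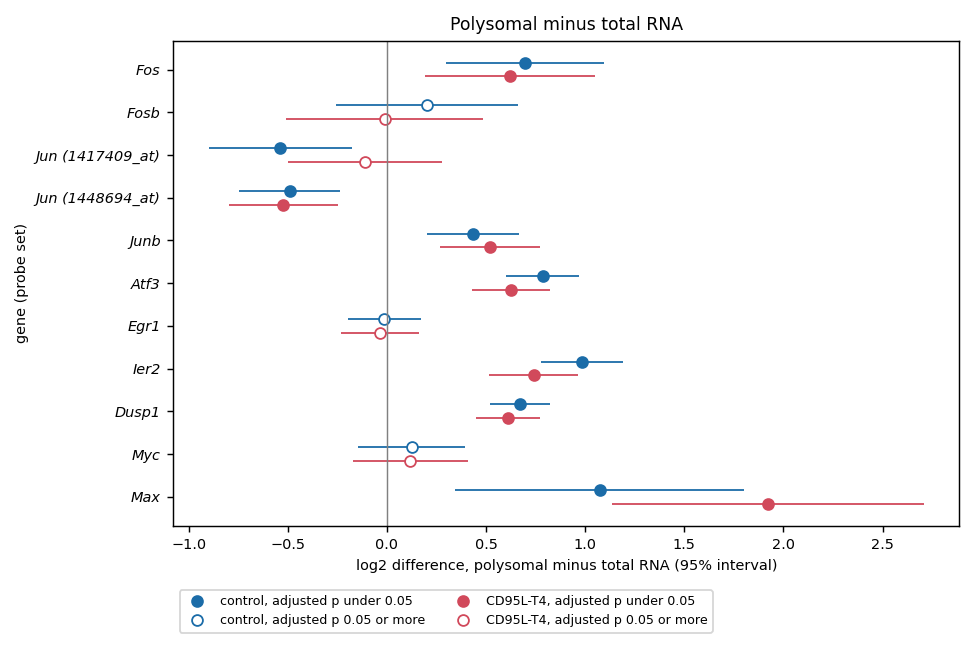
Log2 difference between polysomal and total RNA (horizontal axis) for each probe set (vertical axis), in control (blue) and CD95L-T4 cultures (red); bars are limma's 95% intervals and filled points passed an adjusted p of 0.05. Both intervals lie above 0 for Fos, Junb, Atf3, Ier2, Dusp1 and Max, and both cover 0 for Fosb, Egr1 and Myc.

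In CD95L-T4 cultures 6 of the 11 probe sets were called higher on polysomes and 1 lower, against 26.7% and 24.6% of all probe sets (51.3% in either direction). The groups were apart for 6 of the 11, against 47.7% of all probe sets. The median difference was 0.52 over the 11 and 0.04 over all probe sets. The genes called higher were those of control cultures: Fos, Junb, Atf3, Ier2, Dusp1 and Max. Counts over the members and over all probe sets describe these arrays, and no test of the members as a list was made.

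After 48 h, the only time sampled, CD95L-T4 did not change any member beyond the test's threshold in total RNA. An earlier, passing response could not be seen in these samples, in total or polysomal RNA. limma called 0 of the 11 probe sets, with 0 at an unadjusted p under 0.05, against 0% called and 3.74% at an unadjusted p under 0.05 among all probe sets. Differences lay between -0.22 (Jun 1417409_at) and 0.10 (Myc), each at an adjusted p of 0.997. Fos stood at -0.11 ± 0.19 with an interval of -0.51 to 0.29, Egr1 at 0.09 ± 0.09 and Myc at 0.10 ± 0.13 with an interval of -0.17 to 0.37. Intervals of 10 of the 11 probe sets stayed inside 1.5-fold, against 98.2% of all probe sets, and for Max it ran from -0.70 to 0.76. On leaving out 1 array, Max ranged from -0.19 (without CD95L-T4 replicate 2) to 0.26 (without control replicate 2). The groups lay apart for 0 of the 11, against 2.52% of all probe sets.

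On polysomes, too, limma called 0 of the 11 probe sets, against 0% of all, and 3 had an unadjusted p under 0.05, where 9.65% of all probe sets did. Atf3 stood at -0.23 ± 0.09 (SE, n = 3 and 4, limma adjusted p = 0.494), Ier2 at -0.23 ± 0.11 (adjusted p = 0.514) and Max at 0.88 ± 0.37 (adjusted p = 0.494). Fos stood at -0.19 ± 0.20, Fosb at -0.32 ± 0.24, Dusp1 at -0.11 ± 0.08, Junb at 0.08 ± 0.12, Egr1 at 0.06 ± 0.09 and Myc at 0.09 ± 0.14. Jun stood at 0.20 ± 0.18 (1417409_at) and 0.00 ± 0.13 (1448694_at). The groups lay apart for 0 of the 11, against 5.42% of all probe sets. For 7 of the 11 the 95% interval stayed inside 1.5-fold, against 95.9% of all probe sets.

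The values on polysomes moved with single arrays. Without CD95L-T4 polysomal replicate 2, limma called 1386 of all probe sets and 0 of the members. Ier2 then stood at -0.34 ± 0.11 (limma adjusted p = 0.0708), Myc at 0.31 ± 0.11 (adjusted p = 0.105), Atf3 at -0.25 ± 0.11 (adjusted p = 0.182), Jun at 0.42 ± 0.18 (1417409_at, adjusted p = 0.2) and 0.21 ± 0.10 (1448694_at, adjusted p = 0.212) and Max at 0.90 ± 0.44 (adjusted p = 0.261). Without CD95L-T4 polysomal replicate 1, Ier2 stood at -0.10, Fos at -0.02, Atf3 at -0.15 and Max at 1.36. Without replicate 3, Fos stood at -0.41, Fosb at -0.60, Myc at -0.07, Jun at 0.09 (1417409_at) and -0.14 (1448694_at), and Max at 0.39. The sign of Myc, Egr1, Junb and Jun 1448694_at thus depended on which array was left out.

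**Figure D3:**
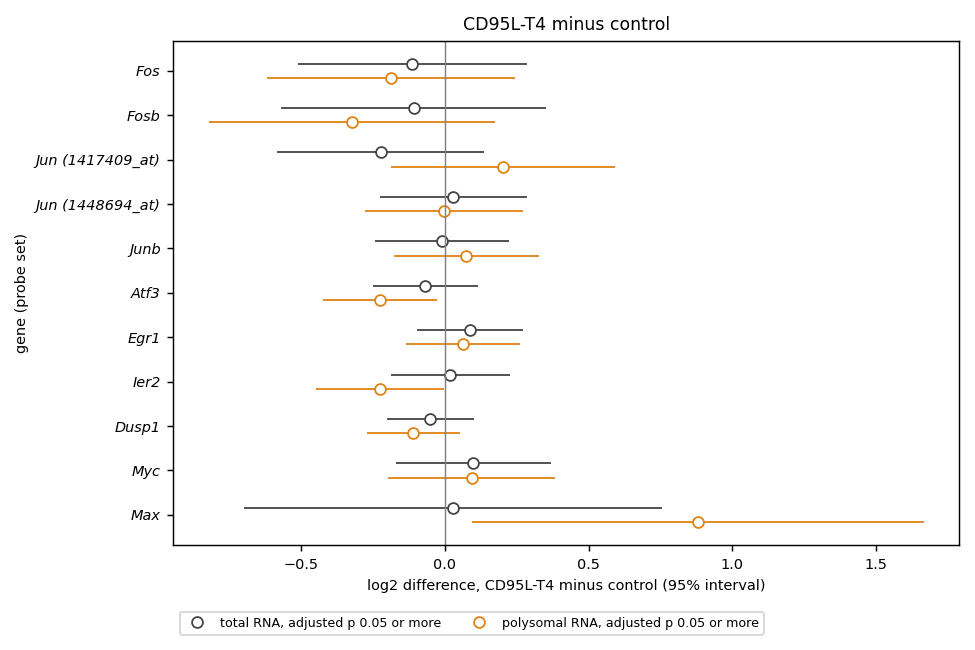
Log2 difference between CD95L-T4 and control cultures (horizontal axis) for each probe set (vertical axis), in total RNA (grey) and polysomal RNA (orange); bars are limma's 95% intervals and open points did not pass an adjusted p of 0.05. All points are open, and the intervals of Max are the widest.

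Whether CD95L-T4 moved the members differently on polysomes and in total RNA was tested as the difference of both effects. limma called 0 of 11, with 0 at an unadjusted p under 0.05, against 0% and 4.38% of all probe sets. Max stood at 0.85 ± 0.51, Jun at 0.43 ± 0.25 (1417409_at) and -0.03 ± 0.18 (1448694_at), Ier2 at -0.25 ± 0.14 and Atf3 at -0.16 ± 0.13. Fos stood at -0.08 ± 0.28 and Myc at -0.01 ± 0.19, with an interval of -0.40 to 0.39. For 7 of the 11 the interval stayed inside 1.5-fold, against 84.2% of all probe sets. On leaving out 1 array, Max ranged from 0.36 to 1.33, Jun from 0.32 to 0.64 (1417409_at) and from -0.17 to 0.18 (1448694_at), Fos from -0.30 to 0.10 and Myc from -0.17 to 0.21. The lowest value came without CD95L-T4 polysomal replicate 3 for each of these, and the highest without replicate 1 (Max, Fos) or replicate 2 (Jun, Myc). Ier2 ranged from -0.35 without replicate 2 to -0.12 without replicate 1.

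By group means, each of Junb, Atf3, Ier2 and Dusp1 had both total RNA groups below both polysomal groups, and the upper total and lower polysomal groups did not overlap. For Junb the other groups did, since CD95L-T4 total replicate 4 (7.60) lay above control polysomal replicate 1 (7.49). Neighbouring groups of the same fraction overlapped for all members. For Max the order was control total, CD95L-T4 total, control polysomal and CD95L-T4 polysomal, with means of 6.08 ± 0.63, 6.11 ± 0.49, 7.15 ± 0.19 and 8.03 ± 0.97 (SD), of which the middle pair did not overlap. For Fos, Fosb, Jun 1417409_at, Egr1 and Myc all neighbours overlapped.

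Variation from array to array within the groups is given as deviations from the group means. Over the 15 arrays these correlated at 0.90 for Fos with Fosb, 0.81 for Fos with Egr1 and 0.76 for Fos with Atf3. Myc went with Jun 1448694_at at 0.91 and with Junb at 0.76, and against Ier2 at -0.35. Both Myc and Jun 1448694_at varied most on the 3 CD95L-T4 polysomal arrays (SD 0.39 and 0.38). Of the 55 pairs of probe sets, 24 were over 0.5 and 8 under 0, with a median of 0.38, and of 0.12 once the mean of each replicate number was taken out. The points of a pair share the array and its scaling, and the correlations are descriptions without a test. The highest correlation of Max with another member was 0.38, with Egr1.

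**Figure D4:**
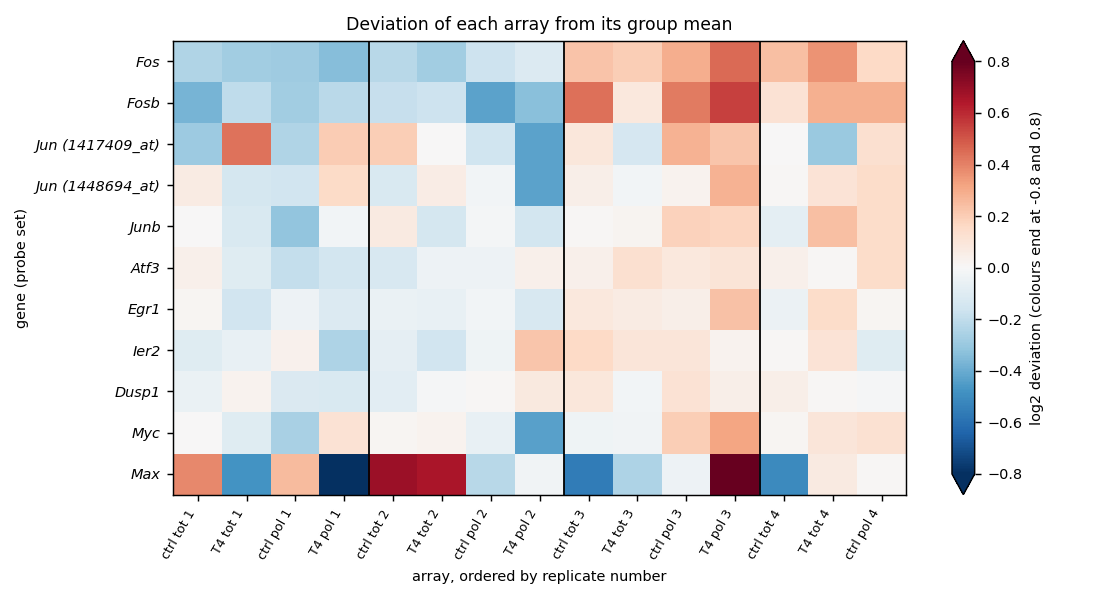
Deviation of each array from its group mean (colour, log2; the scale ends at -0.8 and 0.8) for each probe set (rows), with arrays ordered by replicate number (columns; black lines part the numbers, ctrl is control, T4 is CD95L-T4, tot total and pol polysomal RNA). Fos and Fosb are below their group means on all arrays of replicates 1 and 2 and above them on all arrays of replicates 3 and 4.

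Among 12392 other genes, those with deviations most like Fos were Egr2, a zinc finger relative of Egr1 (Pearson correlation 0.93), Rnase4 (0.93) and Cyp2d13 (0.92). For Egr1 they were Adamts1 (0.94), Tgfbr3 (0.94) and Zkscan1 (0.92), and for Myc they were Jrk (0.97), Zfp821 (0.96) and Nab2 (0.94), the last a corepressor of EGR proteins. Rnase4, Cyp2d13 and Tgfbr3 were dim, with mean levels of 3.58, 5.07 and 4.19, below the array medians of 6.83 to 6.98. The means of the other named genes lay above these medians. Each correlation is over 15 arrays, and the highest of so many correlations is large by selection.

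Related genes were summarised from 5 lists written with earlier results of these data known. Each gene was taken at its brightest probe set, whereas shares of all probe sets include dim ones, so the 2 are not like for like. Of 39 further immediate early and feedback genes, 25 were higher and 2 lower on polysomes of control cultures, with a median of 0.44. Over all probe sets 29.8% were called higher and 26.3% lower. Id2 and Ier3 rose 2.37-fold and 2.48-fold and Zfp36, which encodes a protein that destabilises short-lived messages, 2.22-fold (limma adjusted p = 3.27e-09, 5.56e-09 and 3.31e-09). The 2 lower genes, which were named after their values were seen, were Dusp6 (-0.54) and Trib1 (-0.44). In CD95L-T4 cultures 23 were higher and 2 lower (26.7% and 24.6% of all probe sets), with a median of 0.31. Id2 (1.30), Id3 (0.81) and Ier3 (1.11) had the smallest p.

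Of 16 AP-1 and ATF partners, 10 were higher and 1 lower on control polysomes, with a median of 0.35. Of all probe sets, 29.8% were called higher and 26.3% lower. Atf5 rose 3.62-fold, Crem, of the cyclic AMP response family, 2.17-fold and Batf3 2.13-fold (limma adjusted p = 1.13e-10, 7.75e-10 and 3.07e-10), and the gene that fell, named after its value was seen, was Atf6 (-0.81). In CD95L-T4 cultures 9 were higher and 1 lower (26.7% and 24.6% of all probe sets). Atf5 stood at 1.75 (log2), Crem at 0.96 and Batf3 at 0.95.

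Of 17 genes of the MYC network, 6 were higher and 6 lower in control cultures, with a median of 0.00. Over all probe sets 29.8% were called higher and 26.3% lower, and no list was tested against these shares. Mxd3 and Mlx, which encode dimer partners of the MAX network, rose 2.28-fold and 1.89-fold, whereas Trrap, a coactivator subunit recruited by MYC, fell by 1.26 on the log2 scale (limma adjusted p = 2.76e-09, 1.27e-09 and 4.28e-08). In CD95L-T4 cultures 6 were higher and 5 lower (26.7% and 24.6% of all probe sets). Mxd3 stood at 1.24, Mlx at 0.89 and Mxi1, an antagonist of MYC, at 0.95.

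Of 31 MYC targets, 9 were higher and 17 lower on control polysomes, with a median of -0.38. Of all probe sets, 29.8% were called higher and 26.3% lower in control cultures, and 26.7% and 24.6% in CD95L-T4 cultures. The mitochondrial chaperone gene Hspd1 fell by 1.62, the transferrin receptor gene Tfrc by 1.24 and the nucleolin gene Ncl by 0.99 on the log2 scale (limma adjusted p = 1.94e-11, 9.47e-10 and 3.11e-09). In CD95L-T4 cultures 8 were higher and 14 lower, with Hspd1 at -1.54, Tfrc at -1.25 and Nolc1 at -0.85. Of 26 listed upstream kinases and SRF or ELK factors, 15 were measured. Of these, 6 were higher and 4 lower in control and 5 higher and 3 lower in CD95L-T4 cultures. Nras, a small GTPase above the MAP kinases, rose by 0.63 in control cultures, and the kinase gene Map2k1 and the factor gene Elk4 fell by 0.76 and 0.50. In CD95L-T4 cultures Nras, Map2k2 and Elk1 stood at 0.68, 0.81 and 0.61.

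**Figure D5:**
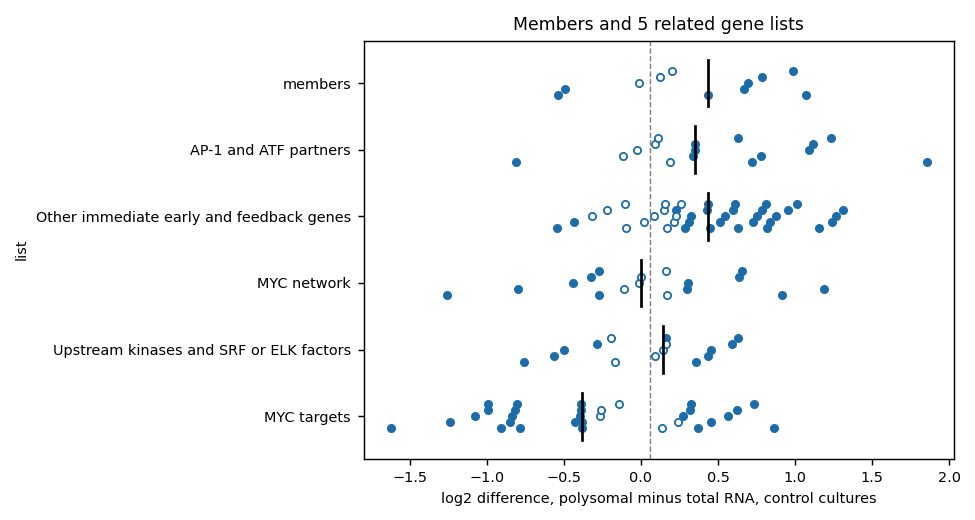
Log2 difference between polysomal and total RNA of control cultures (horizontal axis) for the 11 member probe sets and 5 lists of related genes (vertical axis, 1 probe set per gene); filled points passed an adjusted p of 0.05, black lines are list medians and the dashed line is the median of all probe sets, 0.06. The median of the further immediate early genes lies at 0.44 and that of the MYC targets at -0.38.

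Under CD95L-T4, limma called 0 genes of any of the 5 lists in total RNA, on polysomes or in the difference of both effects. In total RNA 0 to 2 genes of a list had an unadjusted p under 0.05, and the smallest p of each list belonged to Fosl2 (0.17), Plk3 (0.25), Mxi1 (-0.21), Elk1 (-0.28) and Tert (0.27). On polysomes 0 to 3 genes of a list, and 8 of the 31 MYC targets, had an unadjusted p under 0.05, where 9.65% of all probe sets did and the count of calls changed without 1 array. The smallest p of each list belonged there to Jdp2 (-0.21), Id1 (-0.23), Mycn (-0.19), Map2k2 (0.27) and Ccnd2, a cyclin gene (0.54 ± 0.20, adjusted p = 0.483). In the difference of both effects 0 to 2 genes of a list had an unadjusted p under 0.05, with Crem (-0.16), Dusp2 (-0.28), Mxi1 (0.30), Map2k2 (0.22) and Ccnd2 (0.74) first by p.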

How the data were processed

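The deposited table holds log2 values of Affymetrix arrays, scaled between arrays by the authors and rounded, as the values show. Per the labels, a standard Affymetrix protocol with biotin was used. The summary of probes and the normalization are not given in the sources used here. All 15 columns were mapped to samples, with groups from the titles. Affymetrix control probe sets (64 of 22690) were left out of the tests. Of the 22626 tested, 20380 carried 1 gene symbol, 691 several and 1555 none. Names were updated by gene identifier to GRCm38.p6.

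One mean per group was fitted over all arrays in limma 3.58.1 (R 4.3.3), with empirical Bayes moderation, two-sided tests and Benjamini-Hochberg adjustment over all probe sets of a contrast, at 0.05. Errors of differences are moderated standard errors. For listed genes with several probe sets, the brightest on average was used; both probe sets of Jun are reported. The named genes were all members, the 3 called genes of each list with the smallest p (or the 1 with the smallest p where none was called), and the 3 genes most like each of Fos, Egr1 and Myc. Atf6, Dusp6 and Trib1 lie outside this rule and were named after their values were seen. In simulated data with 200 changed probe sets, 2-fold changes were recovered in 98.5% (CD95L-T4, total), 97.1% (CD95L-T4, polysomal) and 87.9% (difference). Between fractions the shares were 99.1% (control) and 97.8% (CD95L-T4), although 12704 and 11603 probe sets were called in the measured data. False calls made up 4.59% to 5.79% of the simulated calls. The shares are averages over probe sets drawn at random, so they do not give the recovery of a single member. Max had the largest standard errors of the members, at 0.34 (CD95L-T4, total), 0.37 (CD95L-T4, polysomal) and 0.51 (difference). Recovery at such errors was not tested. Smaller changes were not simulated, and CD95L-T4 differences of members reached at most 1.84-fold, so the shares do not show what could be missed there. Recovery when a single array moves many calls, as CD95L-T4 polysomal replicate 2 did (0 to 1386), was not tested. Arrays give no read counts; precision rests on their number. The members and lists were chosen with earlier results of these data known.

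Alternatives were other scalings, filters on dim probe sets, fits to the compared groups alone, other variance models, array weights, replicate blocks, the mean of both Jun probe sets, and leaving out each array.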

Additional observations from a re-analysis of the deposited data

Results flagged for a closer look

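Atf3 in control total RNA replicate 2 stood at 5.45, while the other 3 arrays of the group were all at 5.62. The gap made up the whole range of the group and passed Dixon's criterion for 4 samples. It was the only such value among 33 groups of 4 arrays, and chance gives about 1 in 20, so it is given as a value. The fraction difference of Atf3 kept its call without this array.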

How the results depend on the processing

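Of the counts of calls, those that moved by more than 1.5 times were the ones without CD95L-T4 polysomal replicate 2. Leaving out each array in turn gave 0 to 1386 probe sets for CD95L-T4 on polysomes and 0 to 2 for the difference of both effects, but 0 members in both, and 0 of either in total RNA. Between fractions it gave 11761 to 13070 probe sets and 7 to 8 members in control, and 11039 to 11578 probe sets and 6 to 8 members in CD95L-T4 cultures. Of 1327 values of single probe sets under an alternative, 1251 kept direction and side of the threshold, 4 lost a call, 1 gained one, and 71 turned sign, 51 of these on leaving out 1 array. The 71 were called neither in the reported fit nor under the alternative. The cause was not tested.

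On leaving out 1 array, signs turned in these ranges. For CD95L-T4 in total RNA, Fosb ran from -0.23 to 0.038, Jun 1448694_at from -0.011 to 0.0775, Junb from -0.09 to 0.037, Ier2 from -0.017 to 0.073 and Max from -0.19 to 0.26. On polysomes, Jun 1448694_at ran from -0.14 to 0.21, Junb from -0.03 to 0.15, Egr1 from -0.0525 to 0.13 and Myc from -0.065 to 0.31. For the difference of both effects, Fos ran from -0.30 to 0.10, Jun 1448694_at from -0.17 to 0.18, Junb from -0.02 to 0.17, Egr1 from -0.14 to 0.04, Dusp1 from -0.10 to 0.0025 and Myc from -0.17 to 0.21. Between fractions, Egr1 ran from -0.031 to 0.016 in control and from -0.15 to 0.0275 in CD95L-T4 cultures, where Fosb ran from -0.29 to 0.16, Jun 1417409_at from -0.22 to 0.10 and Myc from -0.04 to 0.34.

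Array weights turned Ier2 under CD95L-T4 in total RNA (-0.0086), Jun 1448694_at on polysomes (0.10), Fos, Jun 1448694_at, Egr1 and Myc in the difference (0.034, 0.063, 0.029 and 0.087), and Fosb and Egr1 between fractions of CD95L-T4 cultures (0.11 and 0.012). Equal medians turned Egr1 between fractions (0.08 in control, 0.055 in CD95L-T4) and Fosb in CD95L-T4 cultures (0.079). Quantile normalization turned Max under CD95L-T4 in total RNA (-0.0013, all arrays) and Fosb between fractions of CD95L-T4 cultures (0.0059, within fractions).

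The replicate numbers were checked for pairing, since all groups carry them. Of 21 same-numbered pairs of arrays, 7 had deviations correlating above 0.1 (range -0.23 to 0.22), and in 6 the best match was the own number. All 4 pairs of CD95L-T4 total with control polysomal RNA were above 0.1, but these groups are not compared, and no compared groups met this, so the numbers were not taken to pair samples. A replicate block over all arrays called 0 probe sets in each CD95L-T4 contrast and in the difference, and 12731 and 11597 between fractions, and changed no call of a member. With it, Fos stood at 0.70 ± 0.08 between fractions of CD95L-T4 cultures (limma adjusted p = 6.27e-06) and at -0.10 ± 0.08 under CD95L-T4 on polysomes. The block turned Jun 1448694_at on polysomes (0.027), Fos and Myc in the difference (0.0094 and 0.019) and Fosb between fractions of CD95L-T4 cultures (0.065). A block within each fraction called 0 in the CD95L-T4 contrasts and turned Jun 1448694_at on polysomes (0.047) and Jun 1448694_at and Myc in the difference (0.017 and 0.033). It was not run between fractions, which it takes up. Without the dimmest probe sets Fosb (25% and 50%), Atf3 and Max (50%) give no value. Fits to the compared groups alone do not apply to the difference of both effects.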

Other observations

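The spread of Fos and Fosb followed the replicate number. After its values had been seen, an F test of replicate number beside the group was run in limma over all 22626 probe sets. Fos had the smallest p and Fosb the next (adjusted p = 0.0612 and 0.204), and 0 probe sets passed. Mean deviations of Fos from its group means were -0.29, -0.20, 0.29 and 0.25 in replicates 1 to 4, and those of Fosb -0.27, -0.28, 0.37 and 0.23. Those of Egr1 were -0.07, -0.07, 0.11 and 0.04 (adjusted p = 0.77) and those of Max -0.20, 0.27, 0.03 and -0.14 (adjusted p = 0.934). What the replicate number stands for is not in the labels, and no batch or date is given. Once the number was taken out, the correlation of Fos with Fosb was 0.09 instead of 0.90, that of Fos with Egr1 0.61 instead of 0.81, and that of Myc with Jun 1448694_at 0.89 instead of 0.91. Ier2 then ran against Myc at -0.85 and against Jun 1448694_at at -0.84, over the same 15 arrays. Taking out the means of both group and number leaves fewer independent values than 15. On the 3 CD95L-T4 polysomal arrays the SD of Myc was 0.39 and that of Jun 1448694_at 0.38. In the other groups these SDs were 0.02 to 0.20 and 0.09 to 0.12. How far the correlations rest on those 3 arrays was not tested.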
